A study of Mus musculus with 9 samples.

Results

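The salivary defence genes described here are a set of 10. They include the chitinase gene Chia1, the chitinase-like gene Chil1, the protease inhibitor gene Slpi and Wfdc2, which shares a fold with such inhibitors. The others are the lactoferrin gene Ltf, the peptidoglycan-binding Pglyrp1, the peptidoglycan-cleaving Lyz1, the complement genes C3 and Cfb, and the mucosal scavenger gene Dmbt1. The 10 are among the 54532 genes in the deposited table. Of the 10, 8 had enough counts to be tested, with Cfb and Dmbt1 too low. Chia1 was chosen by its own measured values, since an earlier analysis of the same libraries had shown its increase from 30 to 90 days, so its changes are given as a description with no test. The other 9 were selected for their function with earlier results of these data known.

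The libraries are bulk RNA sequencing of submandibular salivary gland from wild-type (WT) mice given 10 Gy of radiation and sampled 30, 60 or 90 days later, with 3 samples at each time. RNA came from tissue sections, so each library mixes all cells of the gland, and fewer cells of a type cannot be told apart from less RNA per cell. Every group was irradiated with the same dose, non-irradiated glands were not analysed here, and time after irradiation cannot be told apart from the age of the animal. The labels give neither age, sex nor batch, and do not say that the 3 samples of a time point came from separate mice, so p-values measure the spread between these samples only.

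Saliva carries a first line of chemical defence. Secretory epithelium and immune cells release proteins that bind iron, cut or bind bacterial and fungal walls, block proteases that damage the mucosa, or coat microbes for clearance. Chitinases cleave the chitin of fungi and arthropods, lysozyme cleaves peptidoglycan, and C3 is the central protein of complement, activated with the help of the Cfb protease. Several of these proteins are also stored in neutrophil granules, lactoferrin and Pglyrp1 among them.

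Promoter sequences of 4 genes are shown because the results turn on them: Chia1, which was at its lowest level at 30 days, Wfdc2, which passed the test between 30 and 90 days, C3, the most abundant member after Wfdc2, and Wfdc12, a relative of Wfdc2 that moved the other way. Each is the 250 bases before the RefSeq transcription start on GRCm38.p6, read 5′ to 3′ on the strand of the gene. Capitals mark a match to one of the motifs searched. RefSeq sequences were found for 8 of the 10 genes, Cfb and Dmbt1 being the exceptions. The Chia1 window is chr3:106113132-106113381 (plus strand), the Wfdc2 window chr2:164562465-164562714 (plus strand), the C3 window chr17:57228137-57228386 (minus strand) and the Wfdc12 window chr2:164190559-164190808 (minus strand). In GENCODE the Chia1, Wfdc2 and Wfdc12 genes begin further upstream, inside or before these windows, and RefSeq lists 2 starts for Wfdc2.
Chia1: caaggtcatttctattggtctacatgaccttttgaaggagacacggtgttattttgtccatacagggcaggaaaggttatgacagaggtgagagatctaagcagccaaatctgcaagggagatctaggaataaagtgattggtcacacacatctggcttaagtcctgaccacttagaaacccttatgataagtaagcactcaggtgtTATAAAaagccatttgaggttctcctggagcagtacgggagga
Wfdc2: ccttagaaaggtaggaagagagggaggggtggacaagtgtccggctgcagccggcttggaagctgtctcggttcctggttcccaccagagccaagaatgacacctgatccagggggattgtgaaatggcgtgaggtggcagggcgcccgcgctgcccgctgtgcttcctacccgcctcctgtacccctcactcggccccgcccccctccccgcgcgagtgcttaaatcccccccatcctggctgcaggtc
C3: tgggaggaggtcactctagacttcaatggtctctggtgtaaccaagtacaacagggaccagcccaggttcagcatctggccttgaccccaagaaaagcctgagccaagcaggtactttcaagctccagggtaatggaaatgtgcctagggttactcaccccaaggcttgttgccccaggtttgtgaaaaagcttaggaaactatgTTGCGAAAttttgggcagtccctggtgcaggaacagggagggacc
Wfdc12: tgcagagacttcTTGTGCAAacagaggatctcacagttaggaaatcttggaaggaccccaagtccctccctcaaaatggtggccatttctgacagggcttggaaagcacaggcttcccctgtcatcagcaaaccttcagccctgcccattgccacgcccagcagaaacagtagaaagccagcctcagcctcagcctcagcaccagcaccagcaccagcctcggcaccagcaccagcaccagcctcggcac

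The motifs searched, on both strands, were the TATA box TATAAA, the C/EBP motif TTGCNNAA, the STAT motif TTCNNNGAA and the kappa-B motif GGGANTTTC. Among 32851 mouse promoter windows of the same length, 12.37% held the TATA box, 9.564% the C/EBP motif, 7.02% the STAT motif and 0.9406% the kappa-B motif. The Chia1 window held TATAAA starting 43 bases before the transcription start. The C3 window held the C/EBP match TTGCGAAA 45 bases before the start. The Wfdc12 window held a C/EBP match on the opposite strand, TTGTGCAA as printed, 238 bases before the start. None of the 4 motifs was found in the Wfdc2 window, whose GC content was 64.8% against 43.6% for Chia1, 52.0% for C3 and 57.2% for Wfdc12. Ltf, Slpi and Lyz1 also had a C/EBP match and Pglyrp1 a kappa-B match, whereas the Chil1 window held none of these letters. A match describes letters in a window and not a bound site.

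Chia1 encodes the acidic mammalian chitinase, the enzyme that cleaves chitin, and lies at chr3:106113229-106132120 on the plus strand. Values below are CPM, a gene's counts as a rate of the TMM-scaled library size, where TMM corrects library totals for differences in composition. At 30 days Chia1 stood at 0, 0.238 and 0.474 CPM in samples 1, 2 and 3, from 0, 4 and 8 counts. At 60 days it stood at 0.777, 0.678 and 1.67 CPM, and at 90 days at 1.65, 1.96 and 1.61 CPM, from 49, 57 and 32 counts. All 60-day and 90-day libraries lay above all 30-day libraries, sample 3 at 60 days already sat at the 90-day level, and the 90-day values were the tightest of the 3 groups.

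The 30-day mean of Chia1 was 0.237 ± 0.237 CPM, the 60-day mean 1.04 ± 0.546 and the 90-day mean 1.74 ± 0.192 (SD, n = 3 each), which made the 90-day mean 7.33 times the 30-day mean. The fitted log2 fold change was 2.79 ± 0.66 (SE) over the whole interval from 30 to 90 days. It was 2.06 ± 0.67 over its first step, to 60 days, and 0.73 ± 0.50 over its second step. These 3 comparisons share libraries, as do all those that follow. Since Chia1 was chosen for its increase, these estimates may be too large, and their standard errors serve as no test. The counts were low: the 0 in 30-day sample 1 allows up to 3 counts, or 0.213 CPM, at that depth. With each library left out in turn, the estimate over the whole interval ran from 2.27 to 3.71 and that over the first step from 1.54 to 2.98. The highest of each came without 30-day sample 3, so the size of the ratio depends on single libraries.

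Chil1, on chromosome 1, encodes a secreted chitinase-like protein that binds chitin and lacks the cleaving activity. It measured 0.780, 0.535 and 1.24 CPM at 30 days, 1.73, 1.31 and 1.21 at 60 days, and 1.31, 2.82 and 1.05 at 90 days. The groups overlapped at each step, and sample 2 at 90 days was the highest of all 9 libraries. The log2 fold change for 90 against 30 days was 1.03 ± 0.45, which did not pass after adjustment over all genes (edgeR adjusted p = 0.244, unadjusted p = 0.0319). Without 90-day sample 2 it was 0.47. Of 8 further chitinase family genes listed, 4 were abundant enough to be tested, and edgeR called none in any comparison. Of these 4, 1 had an unadjusted p under 0.05 between 30 and 60 days, 1 between 60 and 90 days and 0 between 30 and 90 days.

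**Figure D1:**
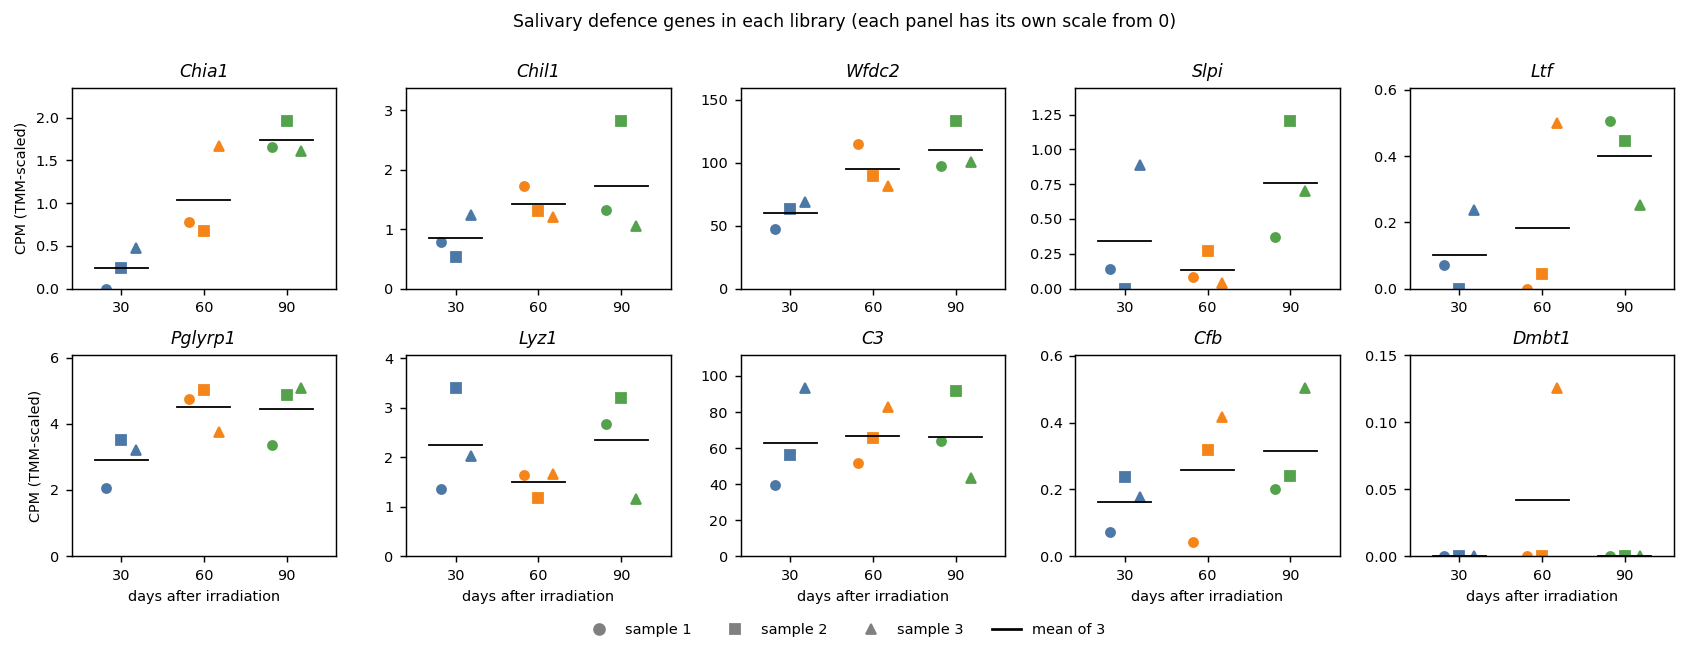
Level of each of the 10 defence genes in CPM (vertical axis, each panel with its own scale from 0) against days after irradiation; symbols are samples 1 to 3 and bars the mean of 3. Chia1 and Wfdc2 have all 60-day and 90-day points above the 30-day points, whereas C3 and Lyz1 overlap at every time.

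Wfdc2 encodes a secreted protein with whey acidic protein (WAP) domains, a fold shared with protease inhibitors of mucosal secretions, and lies at chr2:164562413-164568510 on the plus strand. It stood at 47.4, 62.9 and 68.9 CPM at 30 days, 115, 89.3 and 81.8 CPM at 60 days, and 97.2, 133 and 101 CPM at 90 days. Every later library exceeded every 30-day library, while the 60-day and 90-day values overlapped. Group means were 59.7 ± 11.1, 95.4 ± 17.4 and 110 ± 19.8 CPM (SD, n = 3 each).

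Wfdc2 rose 1.85-fold between 30 and 90 days, a log2 fold change of 0.89 ± 0.16 (95% interval 0.54 to 1.23; edgeR quasi-likelihood test with Benjamini-Hochberg adjustment, adjusted p = 0.00878). The call remained with any single library left out, at log2 fold changes of 0.72 to 0.99. For 60 against 30 days the log2 fold change was 0.67 ± 0.16, which did not pass the threshold (edgeR adjusted p = 0.0612). That comparison was called without 60-day sample 3 (edgeR adjusted p = 0.0468), without 90-day sample 2 (edgeR adjusted p = 0.0242), in the 6 samples of the comparison alone (edgeR adjusted p = 0.0379) and by DESeq2 (adjusted p = 0.00399). The call appeared in 5 of 19 alternative settings, these included, and was absent in 14, limma-voom among them. For 90 against 60 days the difference was 0.21 (95% interval -0.13 to 0.56; edgeR adjusted p = 0.690).

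Slpi encodes a secreted inhibitor of neutrophil elastase and lies on chromosome 2, as do Wfdc2 and Wfdc12. It gave 2, 0 and 15 counts at 30 days, 2, 6 and 1 at 60 days, and 11, 35 and 14 at 90 days. All 90-day values exceeded all 60-day values in CPM, and 30-day sample 3, at 0.888 CPM, sat inside the 90-day range. For 90 against 60 days the log2 fold change was 2.49 ± 0.98 (edgeR adjusted p = 0.328, unadjusted p = 0.0149). The estimate for 60 against 30 days, -1.38, was 0.94 without 30-day sample 3, so that its sign rests on 1 library.

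Ltf encodes lactoferrin, which withholds iron from microbes, and maps to chromosome 9. It gave 1, 0 and 4 counts at 30 days, 0, 1 and 12 at 60 days, and 15, 13 and 5 at 90 days. In CPM the 90-day libraries ran from 0.251 to 0.506, just above the highest 30-day library at 0.237, and the 60-day libraries ran from 0 to 0.501. The log2 fold change for 90 against 30 days was 1.91 ± 1.18 (edgeR adjusted p = 0.392), with few counts and a wide spread between libraries of the same time point. Of the neutrophil markers other than Ltf, none of the 9 reached the filter, Elane, Ngp, S100a8, Cxcr2 and Retnlg were listed at 0 in all 9 libraries, and no marker exceeded 8 counts in any library. The summed level of the 9 markers was 0.0709 to 0.474 CPM at 30 days, at most 0.129 at 60 days and no more than 0.309 at 90 days.

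Pglyrp1 encodes a secreted protein that binds bacterial peptidoglycan and maps to chromosome 7. It measured 2.06, 3.51 and 3.20 CPM at 30 days, 4.75, 5.02 and 3.76 at 60 days, and 3.37, 4.88 and 5.07 at 90 days. The 60-day values lay above all 30-day values, and 90-day sample 1 fell back into the 30-day range. Log2 fold changes were 0.62 for 60 against 30 days (edgeR adjusted p = 0.323, unadjusted p = 0.0278) and 0.59 for 90 against 30 days (edgeR adjusted p = 0.249, unadjusted p = 0.0336).

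Lyz1, on chromosome 10, encodes a lysozyme, and its neighbour Lyz2 is a near-identical copy typical of macrophages, so reads may have been split between them. Lyz1 stood at 1.35, 3.39 and 2.01 CPM at 30 days, 1.64, 1.18 and 1.67 at 60 days, and 2.66, 3.20 and 1.15 at 90 days, with overlapping groups. Lyz2 stood at 51.2, 101 and 99.9 CPM at 30 days, 71.9, 58.1 and 71.9 at 60 days, and 82.3, 137 and 77.5 at 90 days. Sample 2 gave the highest value at 30 and at 90 days for both genes. The Lyz1 log2 fold change was 0.06 for 90 against 30 days (95% interval -0.74 to 0.87) and -0.60 for 60 against 30 days, and edgeR called neither gene in any comparison. The 10 macrophage markers, Lyz2 among them, summed to 194 to 353 CPM at 30 days, 239 to 267 at 60 days and 265 to 444 at 90 days, and edgeR called 0 of 10 in each comparison. An unadjusted p under 0.05 was reached by 1 of the 10 between 30 and 60 days, 0 between 60 and 90 days and 1 between 30 and 90 days.

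C3 lies at chr17:57203970-57228136 on the minus strand. It measured 39.2, 56.0 and 93.1 CPM at 30 days, 51.7, 65.6 and 82.6 at 60 days, and 64.1, 91.7 and 43.3 at 90 days. Libraries of the same time point differed by up to 2.37-fold, and the group means of 62.8, 66.6 and 66.4 CPM lay well within that spread. The log2 fold change was 0.08 for 90 against 30 days (95% interval -0.89 to 1.05; edgeR adjusted p = 0.951), a wide interval on both sides of 0. Cfb, on the same chromosome, had 1, 4 and 3 counts at 30 days, 1, 7 and 10 at 60 days and 6, 7 and 10 at 90 days, too few to test. The annotation places 79.5% of Cfb exon bases under Gm20547, a gene model on the same strand that was listed at 0 in all 9 libraries, so Cfb counts are uncertain. Dmbt1, which encodes the salivary agglutinin that binds bacteria, gave 3 counts in 60-day sample 3 and 0 in the other 8 libraries. Of 11 further complement components listed, 7 were tested, and edgeR called none of them in any comparison. An unadjusted p under 0.05 was reached by 0, 1 and 1 of these 7 for 60 against 30, 90 against 60 and 90 against 30 days.

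**Figure D2:**
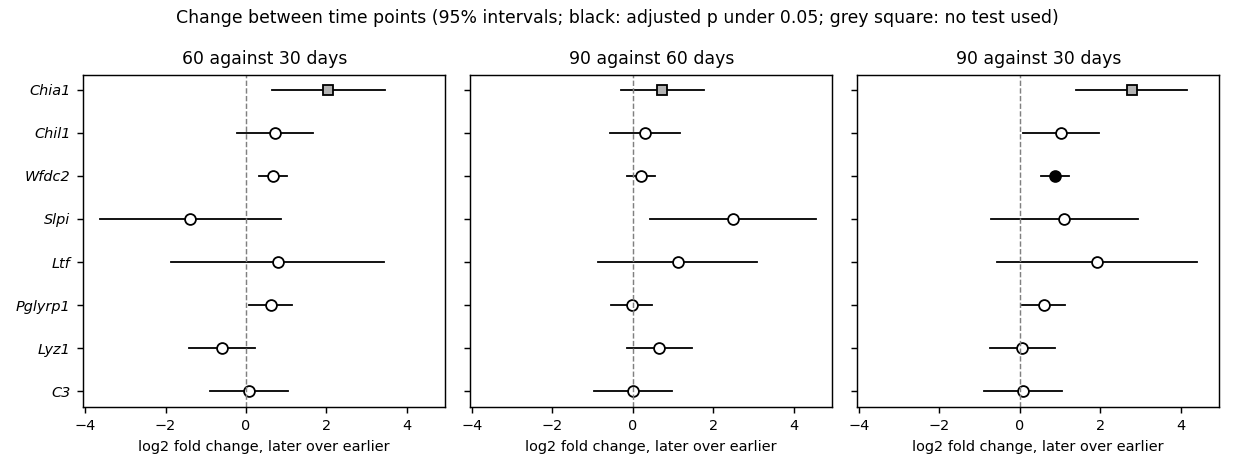
Log2 fold change of the 8 genes that passed the filter (horizontal axis, later over earlier) with its 95% interval, one panel per comparison; black circles passed an adjusted p of 0.05, white circles did not, and the grey square is Chia1, for which no test was used. Only Wfdc2 for 90 against 30 days is black, and the intervals of Slpi and Ltf are the widest. Chia1 was chosen for its increase, so its interval is no test.

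Counted over the 9 genes other than Chia1, of which 7 were tested, edgeR called 0 for 60 against 30 days, where 1.56% of all 15224 genes tested were called (1.14% higher and 0.427% lower). An unadjusted p under 0.05 was reached there by Wfdc2 and Pglyrp1, DESeq2 called 1, Wfdc2, and limma-voom called 0. For 90 against 60 days edgeR called 0 of 7, against 0.256% of all genes (0.092% higher and 0.164% lower), and Slpi alone had an unadjusted p under 0.05. DESeq2 and limma-voom called 0 there too. For 90 against 30 days edgeR called 1 of 7, Wfdc2, against 3.57% of all genes (1.81% higher and 1.77% lower). Chil1 and Pglyrp1 joined Wfdc2 at an unadjusted p under 0.05. Of all genes tested, 12.4% had an unadjusted p under 0.05 between 30 and 60 days, 10.8% between 60 and 90 days and 16.8% between 30 and 90 days.

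Levels of different genes were compared as CPM per kilobase of exon. Over the 9 libraries Wfdc2 averaged 77.6 ± 23.4 CPM per kb and C3 12.7 ± 3.89 (SD). Pglyrp1 averaged 2.15, Lyz1 1.61, Chia1 0.529, Chil1 0.475, Slpi 0.349, Cfb 0.0868, Ltf 0.0663 and Dmbt1 0.00197 CPM per kb. Of the neighbours in this order, Wfdc2 with C3 and C3 with Pglyrp1 had ranges that did not overlap, and every later pair overlapped. The Wfdc2 level per kb was 3.34 to 5.46 times that of C3 at 30 days, 4.47 to 10.0 times at 60 days and 6.55 to 10.5 times at 90 days, so that all 90-day ratios exceeded all 30-day ratios.

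**Figure D3:**
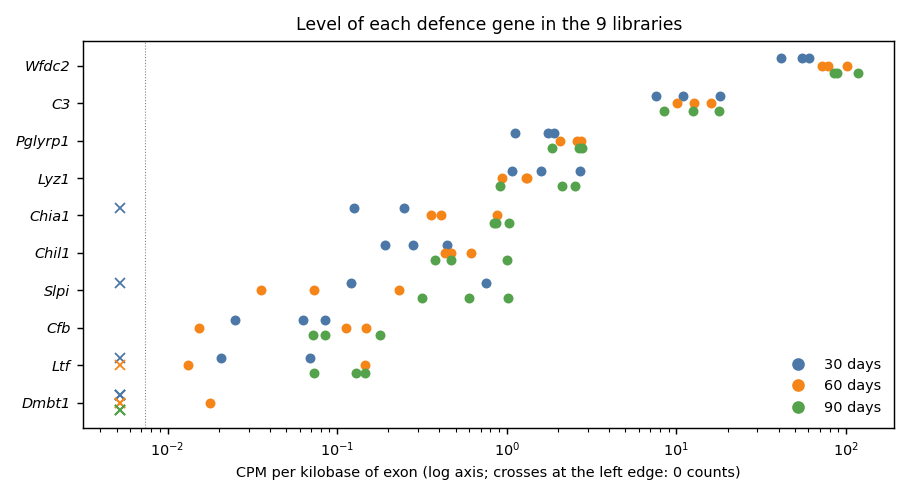
Level of each defence gene in CPM per kilobase of exon (log axis) in the 9 libraries, coloured by time point and ordered by the mean; crosses at the left edge are libraries with 0 counts. Wfdc2 and C3 stand clear of the rest, and the remaining genes overlap with their neighbours.

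Spread within a time point differed among the genes. The coefficient of variation of Wfdc2 was 17.9% to 18.5% in the 3 groups, against 23.2% to 43.9% for C3. That of Chia1 was 99.9% at 30 days, 52.4% at 60 days and 11.0% at 90 days. Sample 2 was the highest 90-day library for Chia1, Chil1, Wfdc2, Slpi, Lyz1 and C3, sample 1 for Ltf and sample 3 for Pglyrp1. How many of all genes were highest in sample 2 was not counted. In B and plasma cell markers 90-day sample 2 stood apart, their 8 genes summing to 455 CPM there. They summed to 66.1 and 76.2 CPM in the other 90-day libraries, 25.3 to 49.0 at 30 days and 26.7 to 31.0 at 60 days. Any link of these markers to the defence genes was not tested. The T lymphocyte markers summed to 4.89 to 14.1 CPM at 90 days against 2.06 to 3.27 at 30 days and 2.16 to 3.50 at 60 days. With 90-day sample 2 left out, the estimates for 90 against 30 days were 0.72 for Wfdc2 (edgeR adjusted p = 0.0276), 2.69 for Chia1 and 0.58 for Slpi.

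Markers of some epithelial compartments moved over the same interval. The 12 intercalated and striated duct markers summed to 799 to 853 CPM at 30 days and 744 to 823 at 60 days. At 90 days they summed to 819 to 842 CPM, and edgeR called none of the 12 in any comparison. The 8 granular convoluted duct markers summed to 20869 to 27649 CPM at 30 days, 39782 to 46969 at 60 days and 32818 to 46566 at 90 days. Among these, 6 of 8 were called higher for 60 against 30 days, beside 1.14% of all genes tested. For 90 against 30 days 6 were called higher and 1 lower, beside 1.81% and 1.77% of all genes tested. The smallest adjusted p-values for 90 against 30 days belonged to Egf, Crisp3, Klk1b22 and Klk1b9, with log2 fold changes of 2.09, 1.89, 1.80 and 1.89. Kcnn4 was the marker called lower (-0.47, edgeR adjusted p = 0.0419). Klk1, the most abundant of the 8 and most of their 30-day sum, averaged 19201 CPM at 30 days and 19610 at 90 days. Its log2 fold change of 0.03 was not called (edgeR adjusted p = 0.956). Of the 10 acinar markers, 9 were abundant in every library, Mucl2 and Aqp5 among them, and Smr3a was not detected beyond 1 count in a single 90-day library. The 10 summed to 457891 to 648394 CPM at 30 days, 366188 to 533373 at 60 days and 311239 to 458533 at 90 days. Mucl2 and Prol1 made up nearly all of this sum, averaging 427725 and 84836 CPM at 30 days. Neither was called for 90 against 30 days (edgeR adjusted p = 0.447 and 0.0621). Of 9 acinar markers tested, Amy1 was called higher (log2 fold change 0.94) and Aqp5 (-0.57), Chrm3 (-0.53) and Lpo (-0.60) lower for 90 against 30 days, and 8 of the 9 had an unadjusted p under 0.05. Of all genes tested, 1.81% were called higher and 1.77% lower there, and 16.8% had an unadjusted p under 0.05. The 8 basal and myoepithelial markers summed to 328 to 456 CPM at 30 days, 478 to 514 at 60 days and 452 to 636 at 90 days. For 90 against 30 days the 7 of them tested had log2 fold changes of 0.34 to 0.92 and an unadjusted p under 0.05 each, beside 16.8% of all genes tested. Among them edgeR called Trp63 alone, higher (0.92), beside 1.81% of all genes. The acinar factor Bhlha15 was called lower for 90 against 60 days (-0.78), as were 0.164% of all genes tested. The part of these cell markers in the Chia1 and Wfdc2 differences was not tested.

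By Pearson correlation of log2 CPM over the 9 libraries, among 13020 genes averaging at least 1 CPM, the profiles most like Chia1 were Chst13 (r = 0.977), Ankrd33b (0.968) and Klf10 (0.967). Those most like Wfdc2 were Def6 (0.977), Eva1a (0.974) and Tbc1d10a (0.973). Those most like Pglyrp1 were Serpinb1a (0.979), an inhibitor of neutrophil proteases, Lcn2 (0.969), which captures bacterial siderophores, and Ap3s1 (0.968). Those most like C3 were Atp8b2 (0.966), Tbc1d2b (0.945) and Aebp1 (0.942). For Chil1 they were Wtip (0.956), Gnas (0.935) and Dnttip1 (0.935), for Slpi Lpar6 (0.945), Zfp467 (0.945) and AW112010 (0.927), for Ltf Usp11 (0.964), Cyyr1 (0.947) and Gm16071 (0.930), and for Lyz1 Sulf1 (0.974), Lsp1 (0.932) and Adamtsl4 (0.916). Among the 10 genes themselves, Wfdc2 correlated with Chia1 at 0.864, with Pglyrp1 at 0.852 and with Chil1 at 0.820, while C3 with Wfdc2 reached 0.334. These values describe 9 libraries that share time point and composition. The profiles named as most like each gene were picked as the highest of 13020. Those for Ltf and Slpi rest on at most 15 and 35 counts per library.

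Lcn2 and Serpinb1a, both on the defence lists, were not called by edgeR. Lcn2 stood at 2.55, 4.70 and 5.86 CPM at 30 days, 9.84, 9.95 and 6.59 at 60 days, and 4.89, 12.0 and 12.2 at 90 days, with a log2 fold change of 1.13 for 90 against 30 days (edgeR adjusted p = 0.163). Serpinb1a stood at 20.0, 32.6 and 32.1 CPM at 30 days, 61.2, 59.6 and 43.3 at 60 days, and 40.2, 56.4 and 63.7 at 90 days. Its log2 fold change for 90 against 30 days was 0.91 (edgeR adjusted p = 0.0567). For both, sample 1 was the lowest of the 90-day libraries, as it was for Pglyrp1. Both genes were named for their high correlation with Pglyrp1 over these same libraries, so the shared order is no separate result.

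Beyond the 10 genes, 100 other genes of mucosal defence were listed, covering chitinases, WAP and protease inhibitors, lysozyme and peptidoglycan recognition, complement components, complement regulators and receptors, secreted salivary antimicrobials and inducers of epithelial defence. Of these, 67 were tested. For 60 against 30 days edgeR called 3 (4.48%, beside 1.56% of all genes), all higher, and for 90 against 60 days 1 (1.49%, beside 0.256%), which was lower. For 90 against 30 days it called 7 (10.4%, beside 3.57%), of which 3 were higher and 4 lower. An unadjusted p under 0.05 was reached by 11 (16.4%), 19 (28.4%) and 22 (32.8%) of the 67 in these comparisons, beside 12.4%, 10.8% and 16.8% of all genes. The split by direction moved with the scaling: library-size scaling gave 2 higher and 2 lower between 60 and 90 days, and 4 higher and 1 lower between 30 and 90 days. With totals lacking the 10 most abundant genes it was 2 higher and 1 lower between 30 and 60 days. DESeq2 gave 3 higher and 4 lower between 60 and 90 days. The median log2 fold change of the 67 was 0.12, 0.14 and 0.17 in these comparisons, beside -0.00, 0.00 and 0.01 over all genes tested. The 90 against 30 day count fell to 3 without 30-day sample 1, 30-day sample 2 or 90-day sample 2, and to 4 without 60-day sample 2 or 90-day sample 3. The 60 against 30 day count fell to 1 without 30-day sample 2 or 60-day sample 2 and rose to 5 without 90-day sample 1. For 90 against 60 days it reached 3 without 30-day sample 1 or 60-day sample 3, and 2 without 60-day sample 1, 90-day sample 2 or 90-day sample 3.

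Pigr, the receptor that carries polymeric immunoglobulin across secretory epithelium, had the smallest adjusted p of the list. It stood at 151, 134 and 114 CPM at 30 days, 236, 226 and 173 at 60 days, and 333, 279 and 287 at 90 days, with no overlap between any of the groups. It rose 2.25-fold from 30 to 90 days (log2 fold change 1.17, edgeR adjusted p = 0.000165) and had already risen at 60 days (0.67, edgeR adjusted p = 0.0131). For 90 against 60 days the log2 fold change of 0.50 was not called (edgeR adjusted p = 0.149). The 60-day call was lost without 30-day sample 2 or 3 or 60-day sample 2, at edgeR adjusted p-values of 0.0642, 0.0771 and 0.101.

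Cd59a, which blocks the terminal complement pore, stood at 14.0, 18.1 and 18.2 CPM at 30 days, 26.8, 28.8 and 24.3 at 60 days, and 22.6, 32.2 and 31.5 at 90 days. All later libraries exceeded all 30-day libraries. It rose for 60 against 30 days (log2 fold change 0.67, edgeR adjusted p = 0.0256) and for 90 against 30 days (0.77, edgeR adjusted p = 0.00529). The 60-day call was lost without 30-day sample 1 or 2 or 60-day sample 1 or 2, at edgeR adjusted p-values from 0.0586 to 0.159. It was also lost under library-size scaling (edgeR adjusted p = 0.0884), with totals lacking the 10 most abundant genes (edgeR adjusted p = 0.0508) and with limma-voom (adjusted p = 0.0645). Duoxa2, a maturation factor for a hydrogen peroxide-producing oxidase of epithelium, had 90-day values of 43.1, 40.9 and 40.2 CPM above all earlier libraries. Its rise for 90 against 30 days (0.82, edgeR adjusted p = 0.0485) lost the call in 7 of the 9 fits with 1 library left out, the exceptions being those without 60-day samples 1 and 3. It was lost as well with totals lacking the 10 most abundant genes (edgeR adjusted p = 0.0513). Some 42.84% of Duoxa2 exon bases overlap Duoxa1 on the opposite strand, and whether counting used strand is not given in the sources used here.

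Cebpd, a transcription factor of the acute-phase response, stood at 11.8, 9.33 and 11.5 CPM at 30 days, 27.5, 23.8 and 22.4 at 60 days, and 11.7, 19.8 and 12.6 at 90 days. It rose for 60 against 30 days (log2 fold change 1.18, edgeR adjusted p = 0.00219). At 90 days 1 of the 3 libraries was back inside the 30-day range. The log2 fold change of -0.74 for 90 against 60 days was not called (edgeR adjusted p = 0.0915).

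Wfdc12, a WAP-domain gene and relative of Wfdc2, stood at 668, 667 and 585 CPM at 30 days, 810, 787 and 679 at 60 days, and 386, 300 and 444 at 90 days. All 90-day values lay below all earlier ones. It fell by 1.01 on the log2 scale from 60 to 90 days (edgeR adjusted p = 0.00167) and by 0.76 from 30 to 90 days (edgeR adjusted p = 0.00398). A stretch of 16.13% of its exon bases is shared with A730032A03Rik on the opposite strand. Between 30 and 90 days, Wfdc2 and Wfdc12 thus moved in opposite directions, each past the threshold.

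Lpo, which encodes salivary lactoperoxidase, Il17rc, a subunit of an interleukin receptor of epithelium, and Spdef, a transcription factor of secretory cells, were the other genes called lower for 90 against 30 days. Lpo averaged 1007 CPM at 30 days and 666 at 90 days (log2 fold change -0.60, edgeR adjusted p = 0.0454). Lpo is also on the list of acinar markers, so its call here is the one given there. Il17rc averaged 25.8 and 17.9 CPM (-0.52, edgeR adjusted p = 0.0278), and Spdef 64.9 and 48.9 CPM (-0.41, edgeR adjusted p = 0.0419). Under library-size scaling, which moves the median of all genes to 0.24 for this comparison, the falls of Lpo, Il17rc and Spdef were -0.35, -0.29 and -0.18, with edgeR adjusted p-values of 0.210, 0.369 and 0.522. Relative to that shifted median the falls are -0.58, -0.53 and -0.41. Each of the 3 calls was also lost in 5 or 6 of the 9 fits that leave out 1 library, and that of Spdef with limma-voom (adjusted p = 0.0569).

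**Figure D4:**
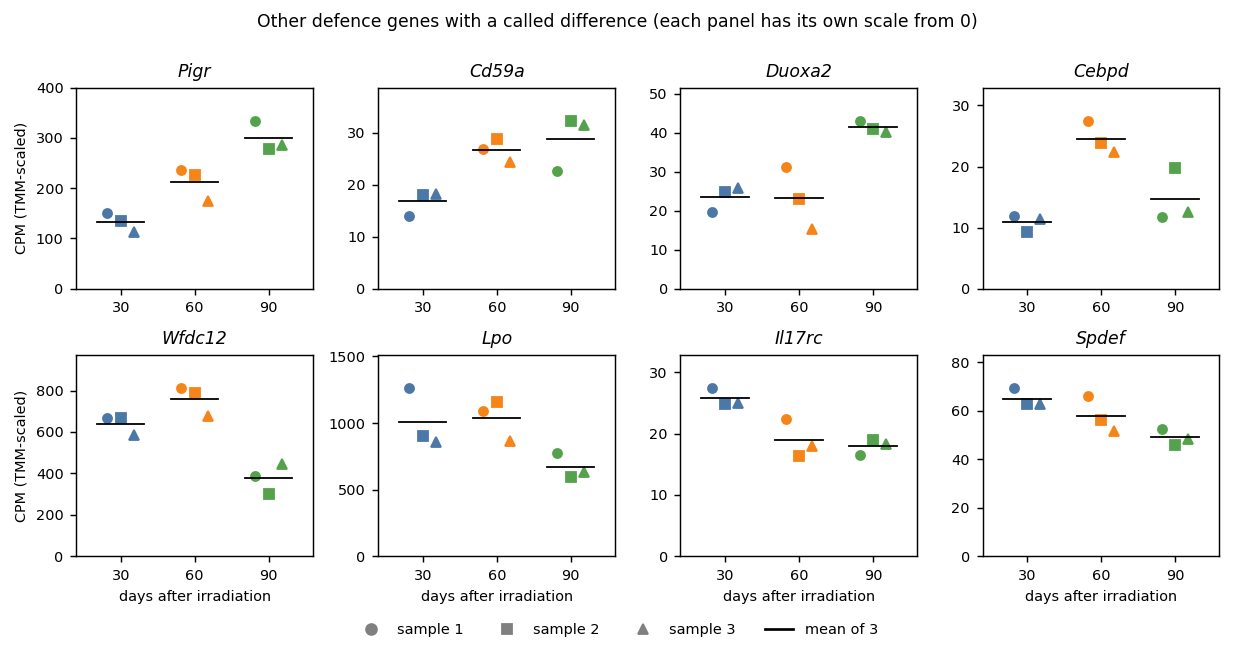
Level in CPM (vertical axis, each panel from 0) against days after irradiation for the 8 other defence genes that edgeR called in any comparison; symbols are samples 1 to 3 and bars the mean of 3. By group mean, Pigr climbs at each step, Cebpd is highest at 60 days, and Wfdc12 and Lpo are lowest at 90 days. The 90 against 60 day differences of Pigr and Cebpd were not called.

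Library totals ran from 16541396 to 26065856 counts and were lower at 30 days than later, and the gland secretory gene Mucl2 took 31.4% to 42.8% of them. A floor of 3 counts corresponds to 0.101 to 0.213 CPM, a level that Ltf, Slpi, Cfb and Dmbt1 were near in some or all libraries. Chia1 was at or near it in 30-day samples 1 and 2, at 0 and 0.238 CPM. Across all genes, 275 were called higher and 269 lower for 90 against 30 days, a split that became 406 and 34 under library-size scaling and 212 and 385 with totals taken without the 10 most abundant genes. Wfdc2 rose under each of these scalings, at 0.83 to 1.10 on the log2 scale over all alternatives that keep every library.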

How the data were processed

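Total RNA from tissue sections of irradiated submandibular gland was treated with DNase and made into libraries with a SMARTER mRNA-seq kit, per the labels' protocols. The authors deposited raw counts per Ensembl gene for the libraries, and the submitters' processing notes name fastp, STAR, featureCounts and mm10; versions, annotation, use of strand and the handling of shared reads are not given in the sources used here. Columns were matched to samples by day and sample number, and 3 columns that match no sample were not used. Symbols were found for 54409 of 54532 identifiers. Positions and exon lengths came from GENCODE mouse release 21 (GRCm38), matched by identifier.

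Genes with low counts were removed with edgeR's filterByExpr (minimum count 10), which left 15224 genes. All 9 libraries were scaled by TMM and fitted together by time point with edgeR 4.0.16 in R 4.3.3 (quasi-likelihood test, robust, limma 3.58.1), and p-values were adjusted by Benjamini-Hochberg over all genes tested, with a threshold of 0.05. Adjusted p-values, log2 fold changes and standard errors come from this fit, which was also tested on simulated data. Correlations used log2 CPM with a prior count of 2. Reads were not tagged by molecule as far as the labels say, so the floor of 3 counts covers counting error only. Replicate libraries of a time point differed by more than sampling noise (chi-square per degree of freedom 9.56 to 33.5), so none was taken for a duplicate.

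The members and lists were chosen with earlier results of these data known. All 10 members are named, with the genes of the defence and cell marker lists called in any comparison (at most 4 per list, smallest adjusted p first) and the 3 genes most correlated with each tested member. Lcn2, Serpinb1a and Lyz2 values were added after they were seen. Lists of intercalated and striated duct, sublingual mucous and adipocyte markers were also counted: edgeR called 0 of 12, 0 of 6 and 0 of 2 tested in each comparison, with 3 to 4, 1 to 3 and 0 at an unadjusted p under 0.05. The T lymphocyte list had 0 of 5 called, with 0 to 4 at an unadjusted p under 0.05, and the B and plasma cell list 0 of 4, with 0 to 4. Each result was recomputed with other scalings (size factors as in DESeq2, plain library totals, totals lacking the 10 most abundant genes) and other tools (DESeq2 1.42.0, limma-voom). It was also recomputed with no filter or a stricter one (10 counts in all 9 libraries), with a required log2 change of 1 in either direction, on the 6 samples of a comparison, with the sample number as a block, and leaving out each library.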

Additional observations from a re-analysis of the deposited data

How the results depend on the processing

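The call of Wfdc2 for 90 against 30 days held in 18 of 19 alternatives, with adjusted p-values up to 0.0314, and was lost, leaving 0 members called, where a log2 change of 1 or more was also required (the fold threshold). For 60 against 30 days 1 member was called, Wfdc2, with DESeq2, with no filter and in the 6 samples alone, and 0 to 1 with a library left out. No alternative called a member for 90 against 60 days.

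The other defence genes called for 60 against 30 days numbered 5 with no filter and 1 with the fold threshold, and 1 to 5 with a library left out. For 90 against 60 days they numbered 4 with library-size scaling (2 of them higher), 2 without the 10 most abundant genes in the totals, 7 with DESeq2 (3 higher), 2 with limma-voom, 7 with no filter (3 higher) and 3 with the replicate block (1 higher), and 1 to 3 with a library left out. For 90 against 30 days they numbered 12 with no filter and 1 with the fold threshold, and 3 to 9 with a library left out. Genes with low counts stay in the fit with no filter, and the cause of the changed numbers was not tested for any setting.

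Over all genes, 60 against 30 days gave 90 calls with library-size scaling, 369 with DESeq2, 152 with limma-voom, 459 with no filter and 72 with the fold threshold, against 238, and 73 to 244 with a library left out. For 90 against 60 days the count was 141 with DESeq2, 354 with no filter, 14 with the fold threshold and 92 with the replicate block, against 39, and 16 to 103 with a library left out. For 90 against 30 days it was 860 with DESeq2, 1045 with no filter and 129 with the fold threshold, against 544, and 184 to 703 with a library left out.

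Each single call with a log2 fold change under 1 was lost where the fold threshold was added. Signs turned only for estimates that were not called. Chil1 for 90 against 60 days ran from -0.256 (without 90-day sample 2) to 0.539 with a library left out. Ltf for 60 against 30 days was -0.0241 with limma-voom and -1.97 (without 60-day sample 3) to 2.32 with a library left out, and Slpi -2.35 to 0.94 (without 30-day sample 3). Pglyrp1 for 90 against 60 days, -0.03, became 0.159 with library-size scaling and 0.0070 without the 10 most abundant genes in the totals, and ran from -0.151 to 0.133 with a library left out. Lyz1 for 90 against 30 days ran from -0.224 to 0.482 with a library left out. C3 for 60 against 30 days became -0.00098 without the 10 most abundant genes in the totals, and -0.161 to 0.485 with a library left out. C3 for 90 against 60 days, -0.00, became 0.182 with library-size scaling, 0.0296 without the 10 most abundant genes in the totals, 0.00757 with at least 10 counts in every sample and 0.0383 with the replicate block, and ran from -0.315 to 0.223 with a library left out. C3 for 90 against 30 days ran from -0.228 to 0.474 with a library left out.

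Samples share only a number across time points: over 9 same-numbered pairs the correlation of deviations from the group means ran from -0.06 to 0.19, with 1 over 0.1, and 1 of 9 libraries correlated best with its own number. With the replicate block the calls over all genes were 270, 92 and 717, and the members called were 0, 0 and 1. Library-size scaling moved the median of all genes to 0.05, 0.17 and 0.24 in the 3 comparisons. Low counts limit the precision of Chia1, Slpi, Ltf, Cfb and Dmbt1, which had at most 57 counts in any library.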
